A study of Sus scrofa with 12 samples.

Results

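The 10 genes described here encode cyclins, cyclin-dependent kinases and transcription factors that time the division of a cell, namely CCNA2, CCNB1, CCNB2, CCNE2, CDK1, CDK2, E2F1, E2F7, E2F8 and MYB. They were chosen by gene name, and all 10 were found among the 20674 genes of the deposited table and among the 15351 genes that passed the filter on low counts. RNA came from the endometrium of gestating Landrace x Yorkshire sows in 4 groups of 3 libraries. L − N sows received a diet with 3.73% crude fiber without N-carbamylglutamate (NCG), and L + N sows the same fiber level with 0.05% NCG. H − N sows received 7.46% crude fiber without NCG, and H + N sows 7.46% crude fiber with 0.05% NCG. All 4 groups were fed for 114 days of gestation and the added fiber came from soybean bran and beet pulp. NCG is an analog of N-acetylglutamate, the activator of the enzyme that starts the urea cycle, and is fed to raise the synthesis of arginine. The age of the sows is not given in the sources used here.

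A cell enters the cycle when cyclin D kinases release E2F1 from the retinoblastoma protein, and E2F1 then turns on the genes of DNA replication together with CCNE2 and CDK2. E2F7 and E2F8 are themselves E2F targets and repress the same genes later in S phase. CCNA2, CCNB1 and CCNB2 activate CDK1 for G2 and mitosis, and their promoters are bound by the MuvB complex with a MYB protein and FOXM1. MYB is a transcription factor of progenitor cells, best known in blood, and is also used by epithelial precursors that form motile cilia. In the endometrium, epithelium and stroma divide under the control of estrogen and progesterone. Bulk RNA was measured, so fewer dividing cells and less RNA per dividing cell cannot be told apart.

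The endometrial libraries held 14369781 to 19309724 counted reads, and the 10 most abundant genes took 6.49% to 9.41% of them. Replicates differed far beyond counting error, with a chi-square of 23.7 to 103 per gene where 1 would be counting error alone, and the common biological coefficient of variation was 0.269. Values are CPM, the read counts of a gene relative to the library total, scaled by TMM (trimmed mean of M values). Libraries are numbered by the replicate number of their label. Differences are log2 fold changes from a quasi-likelihood model fitted to all 12 libraries with edgeR, and adjusted p-values are Benjamini-Hochberg values over 15351 genes. A gene was called at an adjusted p under 0.05. The 10 genes rested on 37 reads (CCNE2) to 853 reads (CCNB1) per library. The labels number the samples within each group and say no more on their origin, so p-values measure the spread between these samples.

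Of the 10 genes, 6 were called higher with NCG, where 5.67% of all tested genes were. CCNA2, CCNB1, CCNB2, CDK1, E2F7 and E2F8 rose with NCG, by 1.84-fold (CCNB2) to 2.65-fold (E2F8), averaged over both fiber levels with 6 libraries against 6. Within the high-fiber diet alone none of the 10 was called (0% of all genes). Their median log2 difference for NCG was 0.64 there and 1.32 within the low-fiber diet. CCNE2, CDK2, E2F1 and MYB had positive differences that did not pass the threshold. Fiber over both NCG levels gave no call among the 10 genes (0.0521% of all genes were called). H − N against L − N called E2F7 and MYB, both higher, where 1.56% of all genes were called higher. L − N held the lowest mean of 9 genes, and the fitted levels of H + N were 0.924 to 1.18 times those of L + N, with no call between them.

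**Figure D1:**
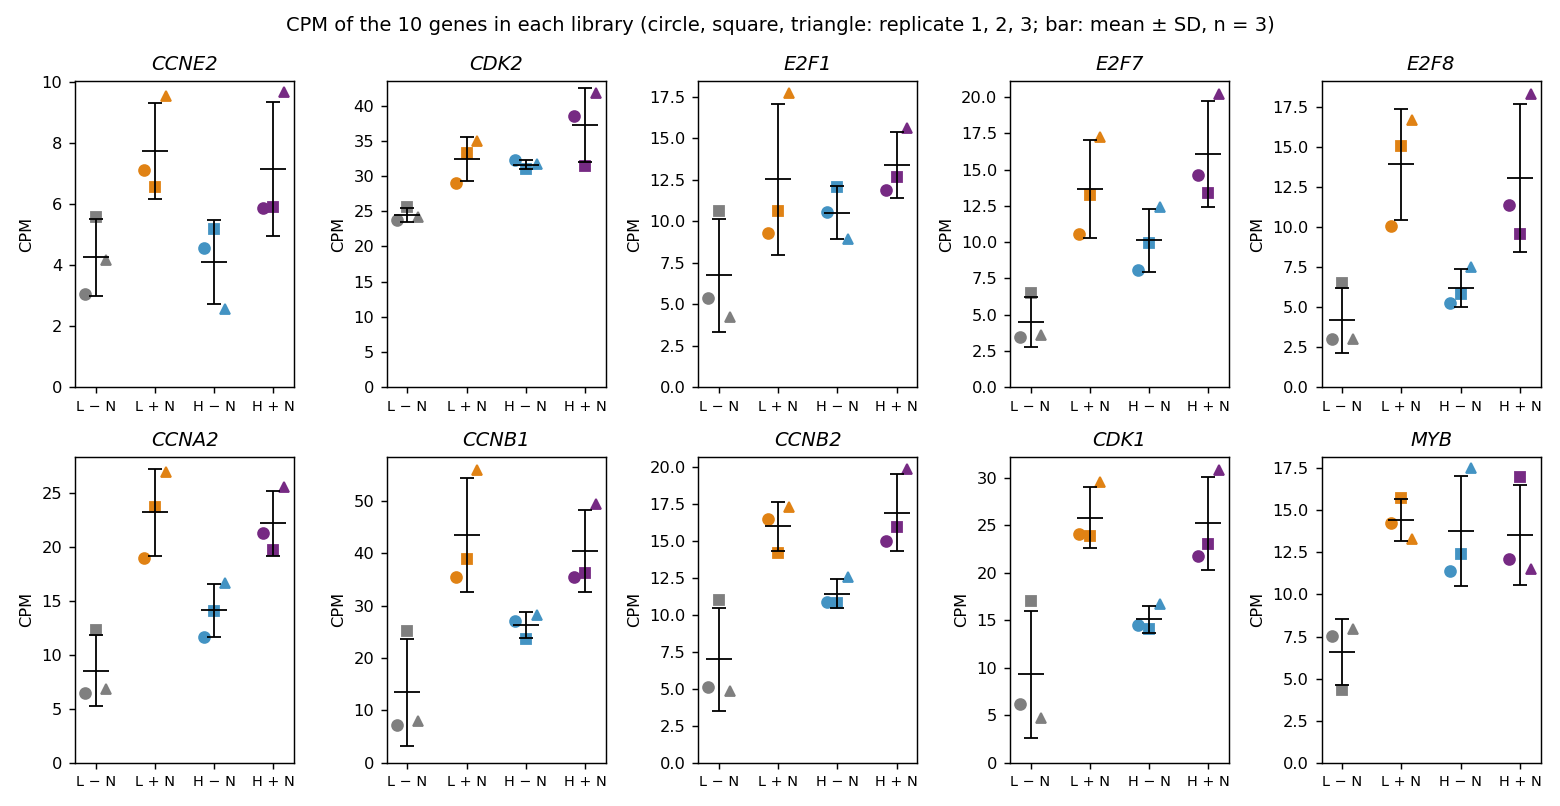
CPM of the 10 genes (vertical axes, each from 0) in the 12 libraries, with 1 point per library, shaped by replicate, over the 4 groups. Bars give mean ± SD (n = 3). The L − N libraries of replicates 1 and 3 are among the lowest 3 of all 12 libraries for each gene, and L − N library 2 stands above them in every panel but that of MYB.

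CCNE2 (gene 100512048, chromosome 4, 41802090 to 41821870, plus strand, Sscrofa11.1) encodes cyclin E2, a partner of CDK2 at the entry into S phase. Its levels were 3.06, 5.58 and 4.16 CPM in L − N, 7.13, 6.58 and 9.55 in L + N, 4.56, 5.20 and 2.55 in H − N, and 5.87, 5.92 and 9.69 in H + N. All 6 libraries with NCG stood above all 6 without it, while fiber made no visible order. The difference for NCG was 0.83 ± 0.241 on the log2 scale (SE), with an adjusted p of 0.0624 (edgeR, Benjamini-Hochberg). CCNE2 shares 1153 bases with INTS8 on the opposite strand, and whether the counting used the strand is not given in the sources used here. INTS8 had 668 to 933 reads in the 6 libraries with NCG and 500 to 636 in the 6 without it, before any scaling. INTS8 counts thus had the same order by NCG as CCNE2, and their part in the CCNE2 values was not tested.

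CDK2 (gene 100154715, chromosome 5, 21365723 to 21372170, plus strand) encodes the kinase that cyclins E and A activate. It was the steadiest of the 10 genes, with 23.8, 25.6 and 24.1 CPM in L − N, 29.0, 33.3 and 35.0 in L + N, 32.2, 30.9 and 31.7 in H − N, and 38.6, 31.5 and 41.8 in H + N. Its highest library was 1.76 times its lowest. All 9 libraries of the other groups lay above the 3 L − N libraries, and H − N and L + N overlapped. CDK2 rose in H + N against L − N by 0.60 ± 0.128 (log2, SE; adjusted p = 0.0247, edgeR), the smallest difference of the 10 genes.

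E2F1 (gene 100153846, chromosome 17, 37178587 to 37190118, minus strand) encodes the activating E2F that starts replication genes. It had 5.35, 10.6 and 4.23 CPM in L − N, 9.27, 10.6 and 17.7 in L + N, 10.6, 12.1 and 8.90 in H − N, and 11.9, 12.7 and 15.6 in H + N. The groups overlapped except for H + N, whose libraries all stood above those of L − N. None of its differences passed the threshold, and the largest, H + N against L − N, was 0.99 ± 0.346 (log2, SE; adjusted p = 0.0925, edgeR).

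E2F7 (gene 100154851, chromosome 5, 104126924 to 104163582, plus strand) and E2F8 (gene 100522785, chromosome 2, 40178182 to 40194932, plus strand) encode the atypical E2Fs, repressors that bind DNA without a DP partner. E2F7 had 3.44, 6.46 and 3.56 CPM in L − N, 10.5, 13.2 and 17.3 in L + N, 8.08, 9.92 and 12.4 in H − N, and 14.6, 13.4 and 20.2 in H + N. Its libraries in the 3 other groups all exceeded those of L − N, and those of H + N all exceeded those of H − N. E2F8 had 2.99, 6.52 and 3.02 CPM in L − N, 10.04, 15.1 and 16.7 in L + N, 5.23, 5.83 and 7.52 in H − N, and 11.4, 9.56 and 18.3 in H + N. E2F8 separated the 6 libraries with NCG from the 6 without, and L − N and H − N overlapped. With NCG, E2F7 rose by 1.13 ± 0.213 (adjusted p = 0.0119) and E2F8 by 1.41 ± 0.256 (adjusted p = 0.0113, both log2, SE, edgeR). E2F7 had the largest difference of the 10 in H + N against L − N, 1.84 ± 0.308 or 3.58-fold (adjusted p = 0.0158, edgeR).

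CCNA2 (gene 100415929, chromosome 8, 102260346 to 102266274, plus strand) encodes cyclin A2, which serves CDK2 in S phase and CDK1 afterwards. It had 6.43, 12.3 and 6.78 CPM in L − N, 18.9, 23.7 and 26.9 in L + N, 11.7, 14.01 and 16.6 in H − N, and 21.3, 19.7 and 25.5 in H + N. The NCG libraries lay above all others at both fiber levels. CCNA2 rose with NCG by 1.05 ± 0.183 (log2, SE; adjusted p = 0.00959, edgeR), the smallest p of the 10 genes. It shares 619 bases with EXOSC9 on the opposite strand. EXOSC9 had 478 to 617 reads in the libraries with NCG and 368 to 455 in those without it, before any scaling. The part of these reads in the CCNA2 values was not tested.

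CCNB1 (gene 397662, chromosome 16, 47338239 to 47348385, plus strand) and CCNB2 (gene 100135668, chromosome 1, 112907047 to 112942218, minus strand) encode the B cyclins that carry CDK1 into mitosis. CCNB1 had 7.13, 25.1 and 7.99 CPM in L − N, 35.5, 39.0 and 55.8 in L + N, 27.2, 23.6 and 28.2 in H − N, and 35.4, 36.3 and 49.4 in H + N. CCNB2 had 5.09, 11.04 and 4.84 CPM in L − N, 16.5, 14.2 and 17.3 in L + N, 10.9, 10.8 and 12.6 in H − N, and 15.0, 15.9 and 19.9 in H + N. For both cyclins the 6 NCG libraries were above the 6 others, and L − N library 2 lay within the range of H − N. CCNB1 rose with NCG by 1.15 ± 0.283 (adjusted p = 0.0337) and CCNB2 by 0.88 ± 0.202 (adjusted p = 0.0255, both log2, SE, edgeR). In H + N against L − N, CCNB1 rose by 1.59 and CCNB2 by 1.27 on the log2 scale (adjusted p = 0.0398 and 0.0287, edgeR).

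CDK1 (gene 100155762, chromosome 14, 64233945 to 64255290, plus strand) encodes the kinase of mitosis itself. It had 6.18, 17.0 and 4.70 CPM in L − N, 24.0, 23.8 and 29.5 in L + N, 14.5, 14.1 and 16.7 in H − N, and 21.8, 23.0 and 30.8 in H + N. As for the B cyclins, NCG separated the libraries at both fiber levels, and L − N library 2 was higher than each H − N library. CDK1 rose with NCG by 1.10 ± 0.268 (log2, SE; adjusted p = 0.0326, edgeR) and in H + N against L − N 2.71-fold (adjusted p = 0.0447, edgeR).

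MYB (gene 100152439, chromosome 1, 28819500 to 28856222, minus strand) followed another order. It had 7.51, 4.33 and 7.93 CPM in L − N, 14.3, 15.7 and 13.3 in L + N, 11.4, 12.4 and 17.5 in H − N, and 12.1, 17.0 and 11.5 in H + N. The 3 L − N libraries were the lowest of all 12, and the 3 other groups overlapped one another. MYB rose in L + N, H − N and H + N against L − N by 1.13 ± 0.265, 1.06 ± 0.265 and 1.04 ± 0.265 (log2, SE; adjusted p = 0.0248, 0.0443 and 0.0392, edgeR). The call in L + N was lost without L − N library 2, L − N library 3 or any L + N library. The call in H − N was kept only without L − N library 1, H + N library 2 or H + N library 3, and that in H + N only without L − N library 1, H − N library 1 or H − N library 3. Between H + N and H − N its difference was -0.02, with a 95% interval from -0.59 to 0.55.

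Per length of transcript, as FPKM (which divides the counts by the library total and the gene length, mean over the 12 libraries), CCNB1 was the most abundant of the 10 genes at 15.2, followed by CDK2 at 13.1, CCNA2 at 10.5 and CCNB2 at 6.31. E2F1 had 4.12, MYB 3.30, CDK1 2.47, E2F8 2.22, E2F7 1.83 and CCNE2 1.36. CCNB1 and CDK2 stood above CDK1 in FPKM, which depends on the gene length used. That length was 7666 bases for CDK1, 2045 for CCNB1 and 2409 for CDK2. In CPM, without division by length, the means over the 12 libraries were 18.8 for CDK1, 30.9 for CCNB1 and 31.4 for CDK2.

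Over both fiber levels, 6 of the 10 genes were called for NCG, all higher, where 7.27% of the 15351 tested genes were called and 5.67% were called higher (edgeR). With the further condition of an absolute log2 fold change above 1, 5 genes remained (CCNA2, CCNB1, CDK1, E2F7 and E2F8), against 1.8% of all genes. All 10 had an unadjusted p under 0.05, as 23.6% of all genes did. The median log2 difference of the 10 was 0.96, and that of all tested genes was -0.03. The 6 NCG libraries did not overlap the 6 others for 6 of the 10 genes (CCNA2, CCNB1, CCNB2, CCNE2, CDK1 and E2F8), as for 3.22% of all genes in the same direction. CCNA2, E2F7 and E2F8 kept their call when any of the 12 libraries was left out. CCNB2 kept it in 8 of 12 such fits, CCNB1 in 4 and CDK1 in 3, and the count of called genes fell to 3 without L − N library 3, H − N library 1, H − N library 2 or L + N library 3, each alone. Of all genes, 586, 678, 878 and 709 were called in these fits, in the same order, against 1116 with all libraries.

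**Figure D2:**
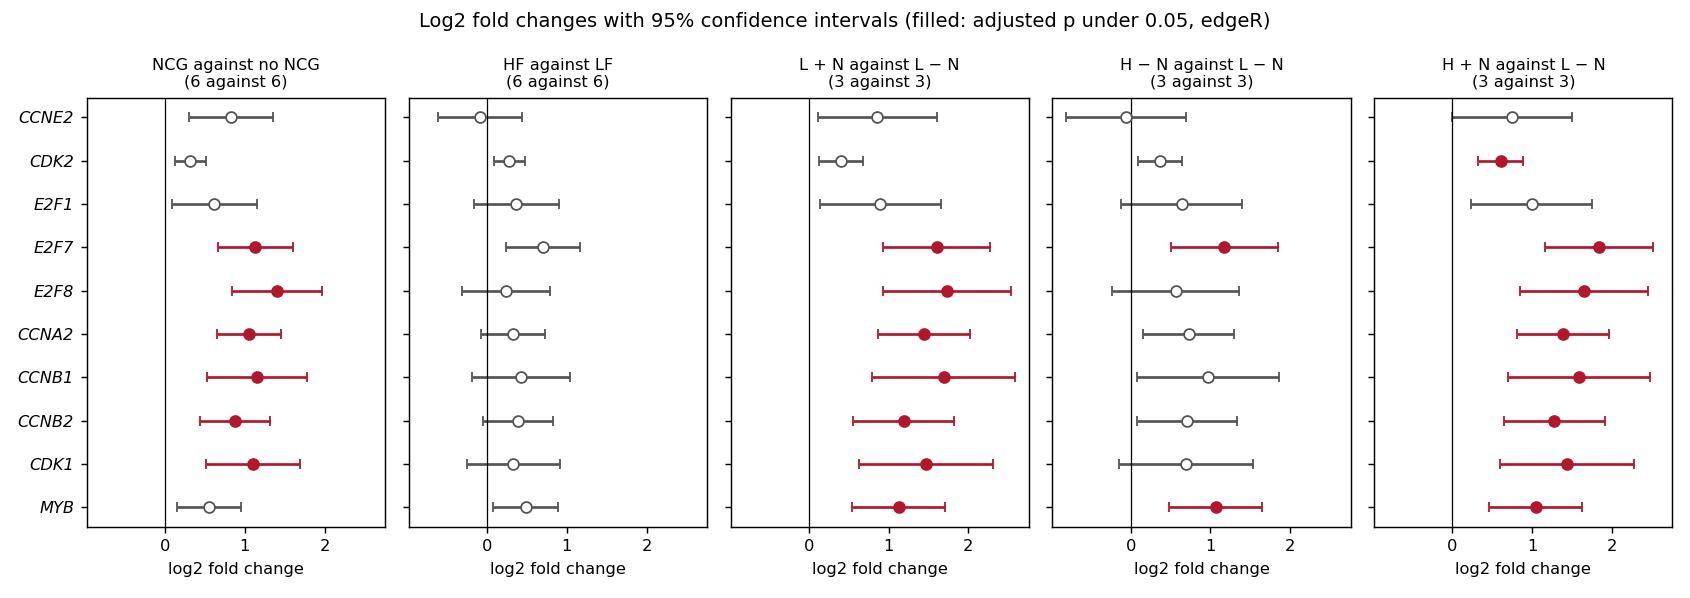
Log2 fold changes (horizontal axes) of the 10 genes with 95% confidence intervals, in 5 comparisons of edgeR. Filled points have an adjusted p under 0.05. HF against LF sets both high-fiber groups against both low-fiber groups. For NCG 6 genes are filled, for HF none, and the narrowest intervals, those of CDK2, lie above 0 in all 5 panels.

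Within the low-fiber diet, 7 of the 10 genes were called higher in L + N against L − N, where 9.6% of all genes were called and 5.97% were called higher (edgeR). E2F8 rose 3.32-fold, CCNB1 3.23-fold, E2F7 3.04-fold, CDK1 2.77-fold, CCNA2 2.72-fold, CCNB2 2.28-fold and MYB 2.19-fold. CDK2, E2F1 and CCNE2 had adjusted p-values of 0.0689, 0.122 and 0.130 (edgeR). The 3 libraries of L + N were above those of L − N for 9 genes, all but E2F1, as for 18% of all genes in that direction. CCNA2 and E2F7 kept this call in 11 of 12 fits that left out 1 library, CCNB1 and E2F8 in 9, CCNB2 and MYB in 7 and CDK1 in 6. The count depended on single libraries, with 0 genes called without L − N library 3, 2 without L + N library 2 or L + N library 3, and 4 without L + N library 1. Of all genes, 207, 247, 606 and 647 were called in these fits, in the same order, against 1474 with all libraries. Without L − N library 3, 8 of the 10 genes had an unadjusted p under 0.05 (edgeR).

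Within the high-fiber diet, none of the 10 genes was called in H + N against H − N by edgeR, and none of the 15351 tested genes was (0%). At an unadjusted p under 0.05 there were 4, namely CCNA2, CCNE2, E2F7 and E2F8, as for 8.67% of all genes, and DESeq2 called 0. That number was 7 without L − N library 2, 2 without H − N library 2, 1 without H − N library 1 and 0 without H + N library 3. E2F8 had the largest difference, 1.08 with a 95% interval from 0.30 to 1.87. The libraries of H + N stood above those of H − N for 7 of the 10 genes, as for 7.82% of all genes in that direction. The change of the NCG effect between fiber levels, which is the interaction, was negative for all 10 genes, from -0.06 (CCNE2) to -1.15 (MYB). None was called by edgeR (0% of all genes) or by DESeq2, and at an unadjusted p under 0.05, which 12.8% of all genes had, there were 2, MYB (adjusted p = 0.287, edgeR) and E2F7 (adjusted p = 0.383, edgeR). That number was 8 without L − N library 2, where the median of the 10 interactions was -1.12 in place of -0.69. It was 1 without L − N library 1 or 3, L + N library 2 or 3, H − N library 2 or 3, or H + N library 1 or 2, and the interaction of CCNE2 turned positive in 6 of the 12 fits that left out 1 library, up to 0.14 without H − N library 2.

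For fiber over both NCG levels (HF against LF), edgeR called none of the 10 genes, where 0.0521% of all genes were called. At an unadjusted p under 0.05, which 19.5% of all genes had, there were 3, CDK2, E2F7 and MYB, with log2 differences of 0.28, 0.70 and 0.49 (adjusted p = 0.133, 0.122 and 0.184, edgeR). Without L − N library 2 there were 8, and the median log2 difference was 0.56 in place of 0.35. DESeq2 called 1 of them, E2F7. Without NCG, in H − N against L − N, MYB (2.09-fold) and E2F7 (2.25-fold, adjusted p = 0.0497) were called by edgeR, where 5.27% of all genes were called and 1.56% were called higher. The libraries of H − N stood above those of L − N for 3 genes, CDK2, E2F7 and MYB, as for 12.8% of all genes in that direction. Without L − N library 2 there were 4 calls, CCNB1, CCNB2, CDK1 and E2F7. Leaving out L − N library 1 or H + N library 2 gave 1 call, and there was none without L − N library 3, any H − N library, any L + N library or H + N library 1. Of all genes, 0 of 15510 were called without H − N library 1 and 6 of 15582 without L − N library 3. The other fits with no call among the 10 called 224 to 528 of all genes. With NCG, in H + N against L + N, edgeR and DESeq2 called none of the 10, where 0% of all genes were called by edgeR, and the log2 differences ran from -0.11 to 0.23. None of the 10 had an unadjusted p under 0.05 (1 had without H + N library 2), as 4.68% of all genes did, and none had its H + N libraries all above those of L + N, as 5.86% of all genes did.

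In H + N against L − N, which differ in fiber and NCG, 8 of the 10 genes were called, all higher, where 7.97% of all genes were called and 4.31% were called higher (edgeR). The difference exceeded 1 on the log2 scale for 7 of them, all but CDK2, as for 3.58% of all genes called in either direction (27.5% of all genes had an unadjusted p under 0.05, and 9 of the 10), and CCNE2 and E2F1 were not called. The libraries of H + N stood above those of L − N for 10 of 10 genes, as for 15.2% of all genes in that direction. E2F7 kept its call in 10 of 12 fits that left out 1 library, CCNA2, CCNB2 and E2F8 in 9, CDK2 in 8, CCNB1 in 4, MYB in 3 and CDK1 in 2. Without L − N library 3 or H + N library 1 the count was 0, without H + N library 3 it was 1, and without H + N library 2, H − N library 2, L + N library 1 or L + N library 2 it was 5. Of all genes, 4 of 15582 were called without L − N library 3 and 1 of 15583 without H + N library 1. In these fits 8 and 10 of the 10 genes had an unadjusted p under 0.05 (edgeR). Without H + N library 3, 328 of 15517 genes were called. The 3 comparisons with L − N share its libraries.

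L − N library 2 departed from its group in both directions. Relative to the mean of L − N replicates 1 and 3, it held 3.32 times the CPM of CCNB1, 3.12 times that of CDK1, 2.22 times that of CCNB2 and 2.21 times that of E2F1. For CDK2 the factor was 1.07, and for MYB 0.56, which was the lowest MYB value of all 12 libraries. Without that library, the log2 difference of H + N against L − N was larger for CDK1 (2.21) and CCNB1 (2.42) and smaller for MYB (0.81). The calls of MYB (adjusted p = 0.0962) and of CDK2 (adjusted p = 0.0502) were then lost and that of E2F1 gained (adjusted p = 0.0359, all edgeR). Over the expressed genes as a whole, L − N library 1 was the more distant of the group. Its chi-square per gene was 103 to library 2 and 78.1 to library 3, against 24.25 between libraries 2 and 3.

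Among the other libraries, L + N library 3 and H + N library 3 were each among the 3 highest for 9 of the 10 genes. For MYB they were not, at places 8 and 5 from the lowest. Deviations of log2 CPM from the group means were compared between pairs of the 10 genes over the 12 libraries, as a description, since the values share their libraries. CDK1 and CCNB2 had a Pearson r of 0.98, as had CCNA2 and E2F7. MYB had a negative r with each of the other 9, from -0.46 with E2F7 to -0.77 with CCNE2. L − N library 2, which departed from its group in opposite directions for MYB and for CCNB1 and CDK1, was kept in these values. With the differences between groups included, r of MYB with the other 9 was positive, from 0.13 with CCNE2 to 0.66 with E2F7.

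Other cell cycle genes were grouped by role in lists written from general knowledge. Among 20 targets of the MYB-MuvB complex in G2 and mitosis, 17 were called higher with NCG and none lower. In the name of this list MYB stands for a protein of the MYB family, not for the gene MYB described here, and binding was not measured. The log2 values of MYB and of the summed CPM of the list had a Pearson r of 0.63 over the 12 libraries. As deviations from the group means, r was -0.60. Of all genes, 5.67% were called higher for NCG and 4.31% in H + N against L − N. The list had a median log2 difference of 0.99 for NCG. HMMR, a spindle protein, rose by 2.14 ± 0.29, KIF11, a spindle motor, by 1.85 ± 0.27, TOP2A, the topoisomerase that untangles chromosomes, by 1.83 ± 0.27, and CENPF, a kinetochore protein, by 1.79 ± 0.27 (log2, SE; adjusted p = 0.00578, 0.00578, 0.00578 and 0.00585, edgeR). HMMR overlaps NUDCD2. TOP2A and TPX2, which helps to build the spindle, had the highest FPKM of that list (13.4 and 11.3). The count ranged from 13 to 20 when single libraries were left out. In H + N against L − N, 15 of the 20 were called higher, with a median of 1.35 and TOP2A (2.59), KIF11 (2.32), BUB1B (1.55), a checkpoint kinase, and NUSAP1 (0.78), which overlaps NDUFAF1 and OIP5, at the smallest p-values. None of the 20 was called without L − N library 3 or without H + N library 1, and 4 were without H + N library 3. Of all genes, 4, 1 and 328 were called in these fits, in the same order.

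For NCG, 20 E2F targets for DNA replication had a median log2 difference of 0.52. Of these, 3 were called higher and none lower, where 5.67% of all genes were called higher. They were RRM2, a subunit of ribonucleotide reductase (1.07 ± 0.27), TK1, thymidine kinase (1.12 ± 0.29), and CDC45, part of the replicative helicase (0.75 ± 0.20; adjusted p = 0.0359, 0.0379 and 0.0450, edgeR). PCNA, the sliding clamp, and RRM1 had the highest FPKM of the list (61.1 and 41.6), with log2 differences of 0.47 and 0.28 (adjusted p = 0.125 and 0.0580, edgeR). In H + N against L − N, where 7.97% of all genes were called, 1 was, the helicase subunit MCM3 (1.28 ± 0.35, adjusted p = 0.0466, edgeR), and the median was 0.73. The count for NCG was 7 without L − N library 2 and 0 without L − N library 1, L − N library 3, L + N library 2, L + N library 3, H − N library 1, H − N library 3 or H + N library 3. It was 1 without L + N library 1, H + N library 1 or H + N library 2. For H + N against L − N it was 5 without L − N library 2, 2 without H − N library 3, and 0 without any other single library. The fits with 0 called from 1 (without H + N library 1) to 1823 (without L − N library 1) of all genes. The difference between the lists was not tested.

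**Figure D3:**
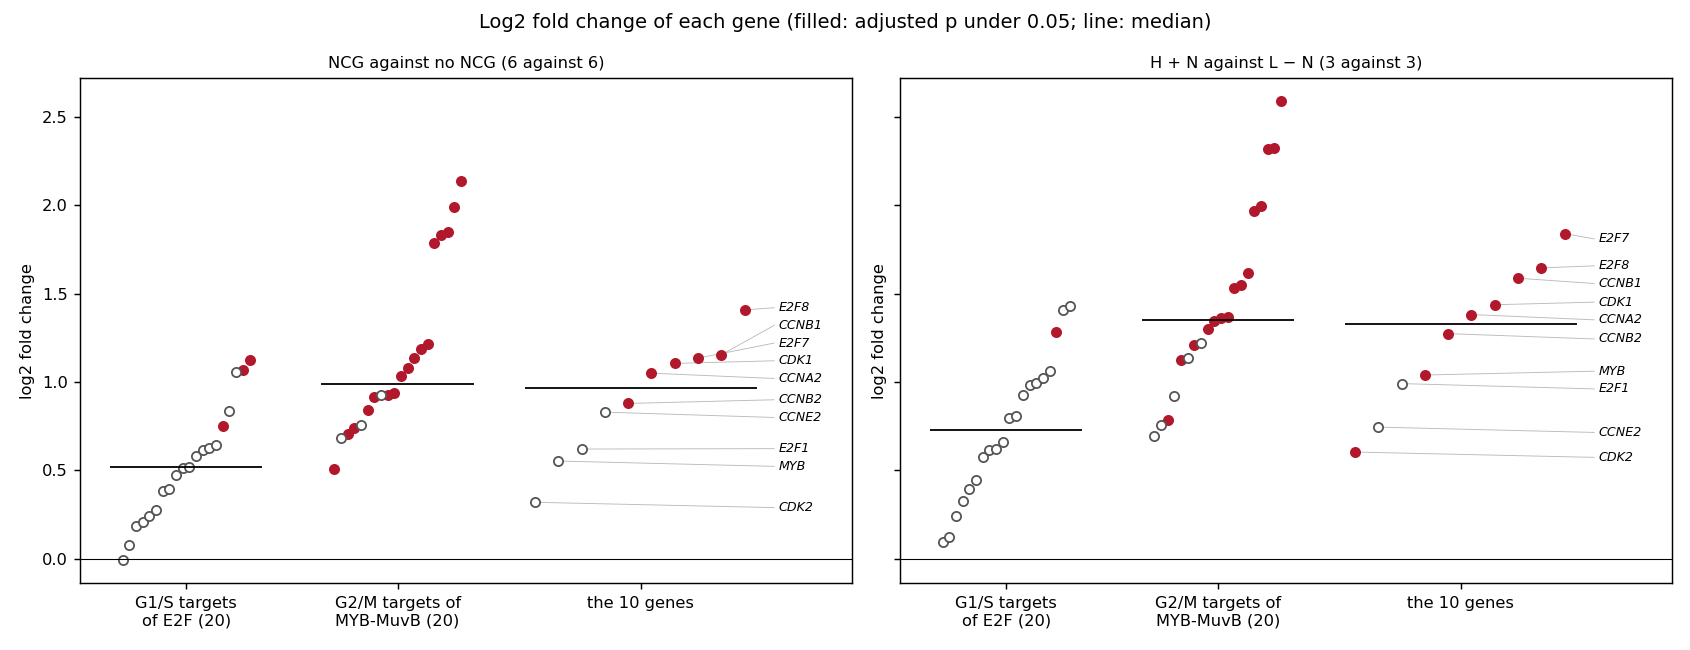
Log2 fold change (vertical axis) of each gene in 2 lists of 20 E2F targets of G1/S and 20 MYB-MuvB targets of G2/M and of the 10 genes, for NCG and for H + N against L − N. Filled points have an adjusted p under 0.05 (edgeR) and lines are medians. For NCG 3 G1/S genes and 17 G2/M genes are filled, with medians of 0.52 and 0.99.

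Of 11 other cyclins, 3 were called higher with NCG, where 5.67% of all genes were. CCNF, which marks proteins for degradation in G2, rose by 1.02 ± 0.19 (adjusted p = 0.0115), CCNB3, a further B-type cyclin, by 0.89 ± 0.18 (adjusted p = 0.0168), and CCNH, the partner of CDK7, by 0.52 ± 0.11 (adjusted p = 0.0183, all log2, SE, edgeR). CCNH overlaps RASA1. CCNB3 (1.5) and CCNF (1.27) were also called in H + N against L − N, where 4.31% of all genes were called higher. The cyclins with the highest FPKM, CCNG1 (111) and CCNG2 (31.7), which respond to p53 and FOXO factors, had log2 differences for NCG of -0.06 and -0.25 (adjusted p = 0.808 and 0.339, edgeR).

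Of 8 other cyclin-dependent kinases and kinase subunits, none was called with NCG by edgeR or DESeq2, and 2 had an unadjusted p under 0.05, as 23.6% of all genes did. In H + N against L − N, CKS1B, a kinase subunit that helps to degrade p27, rose by 0.75 ± 0.21 and CDK9, a kinase of transcription, fell by 0.52 ± 0.13 (log2, SE; adjusted p = 0.0487 and 0.0389, edgeR). CKS1B overlaps SHC1. CDK4, the kinase of the D cyclins, and CDK9 had the highest FPKM (97.8 and 77.8), with log2 differences for NCG of -0.13 and -0.24 (adjusted p = 0.539 and 0.138, edgeR).

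Of 7 inhibitors of these kinases, none was called with NCG or in H + N against L − N by edgeR. At an unadjusted p under 0.05, which 23.6% and 27.5% of all genes had, there were 1 and 3, and DESeq2 called 0 and 1. Their median log2 differences were -0.21 and -0.38. CDKN1B (p27) and CDKN1A (p21) had the highest FPKM of the inhibitors (110 and 24.5), with log2 differences for NCG of -0.21 and -0.26 (adjusted p = 0.297 and 0.360, edgeR). CDK6 and CDKN2A were not analysed here.

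Of 6 CDC25 phosphatases, which activate CDK1, and WEE kinases, which restrain it, none was called with NCG by edgeR, 3 had an unadjusted p under 0.05, as 23.6% of all genes did, and DESeq2 called 2. WEE1 rose in H + N against L − N by 0.93 ± 0.23 (log2, SE; adjusted p = 0.0340, edgeR). CDC25B and WEE1 had the highest FPKM (9.45 and 6.25), with log2 differences for NCG of 0.27 and 0.52 (adjusted p = 0.348 and 0.0728, edgeR).

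Of 10 other E2F, DP and pocket protein genes, 2 were called higher with NCG, where 5.67% of all genes were. RB1, the retinoblastoma protein that holds E2F1 in check, rose by 0.47 ± 0.08 and E2F2, an activating E2F, by 0.75 ± 0.20 (log2, SE; adjusted p = 0.00715 and 0.0441, edgeR), and RB1 was also called in H + N against L − N (0.42). RB1 overlaps LPAR6. RBL2 and E2F4, which form a repressor in resting cells, had the highest FPKM (26.7 and 18.9) and log2 differences for NCG of 0.05 and -0.06 (adjusted p = 0.823 and 0.852, edgeR).

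Of 8 genes for MuvB, the other MYB proteins and FOXM1, 2 were called higher with NCG, where 5.67% of all genes were. MYBL1 (A-MYB) rose by 1.04 ± 0.20 and FOXM1, which drives the B cyclins, by 1.22 ± 0.28 (log2, SE; adjusted p = 0.0131 and 0.0262, edgeR). FOXM1 was also called in H + N against L − N (1.63). RBBP4 and LIN37, both in MuvB, had the highest FPKM (176 and 11.4) and log2 differences for NCG of -0.08 and -0.01 (adjusted p = 0.560 and 0.974, edgeR).

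Of 19 genes for the anaphase-promoting complex and other factors that destroy cyclins, 2 were called higher with NCG and in H + N against L − N. Of all genes, 5.67% and 4.31% were called higher in these comparisons. FBXO5, an inhibitor of the complex and an E2F target, rose by 0.91 ± 0.15 and 1.06 ± 0.22, and UBE2C, a ubiquitin-conjugating enzyme of the complex, by 0.93 ± 0.23 and 1.42 ± 0.33 (log2, SE; adjusted p = 0.00816, 0.0229, 0.0355 and 0.0307, edgeR). The core subunits ANAPC13 and ANAPC11 had the highest FPKM (44.7 and 26.8) and log2 differences for NCG of 0.01 and -0.20 (adjusted p = 0.979 and 0.499, edgeR). ANAPC13 overlaps CEP63.

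Ratios of counts within a library compare the genes with one another without any scaling between libraries, and 6 were computed, chosen after the counts were seen. For each, NCG labels were permuted exactly within each fiber level (400 arrangements, 2-sided, smallest possible p 0.005). The log2 ratio of CDK1 to CDK2 was -1.94, -0.59 and -2.35 in L − N, -0.27, -0.48 and -0.25 in L + N, -1.16, -1.13 and -0.92 in H − N, and -0.83, -0.45 and -0.44 in H + N. It was above its group without NCG in all 3 libraries at each fiber level, and higher by 0.90 on average (exact p = 0.005, adjusted over the 6 ratios 0.03). With single libraries left out, the difference was 0.72 to 1.15. The exact permutation p, not adjusted, was then 0.035 without any 1 L + N library, 0.01 without any 1 H − N library and 0.005 otherwise.

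The log2 ratio of the repressors E2F7 and E2F8 together to the activator E2F1 was 0.26, 0.29 and 0.63 in L − N, 1.15, 1.41 and 0.94 in L + N, 0.33, 0.38 and 1.16 in H − N, and 1.13, 0.86 and 1.30 in H + N. H − N library 3 lay within the range of H + N, and the other 5 libraries without NCG lay below all 6 with it. The mean difference was 0.62 (exact permutation p = 0.02, adjusted 0.06), and it did not pass the threshold after adjustment. Leaving out H − N library 3, the overlapping library, moved it to 0.75, and over the other 11 libraries left out in turn it was 0.55 to 0.68 (exact permutation p from 0.02 to 0.03).

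The other ratios had exact permutation p-values of 0.09 (CCNB1 to CCNB2, log2 difference 0.33), 0.605 (both B cyclins to CCNA2, 0.08), 0.175 (MYB to CDK1, -0.63) and 0.455 (CCNE2 to CCNA2, -0.23), which were 0.18, 0.605, 0.263 and 0.546 after adjustment. For 3 of them, leaving out 1 library brought the unadjusted p under 0.05. MYB to CDK1 was -1.05 (exact permutation p = 0.005) and CCNB1 to CCNB2 was 0.43 (exact permutation p = 0.045) without L − N library 2. CCNB1 to CCNB2 was 0.36 (exact permutation p = 0.035) without H − N library 1, and CCNE2 to CCNA2 was -0.44 (exact permutation p = 0.015) without H − N library 3.

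**Figure D4:**
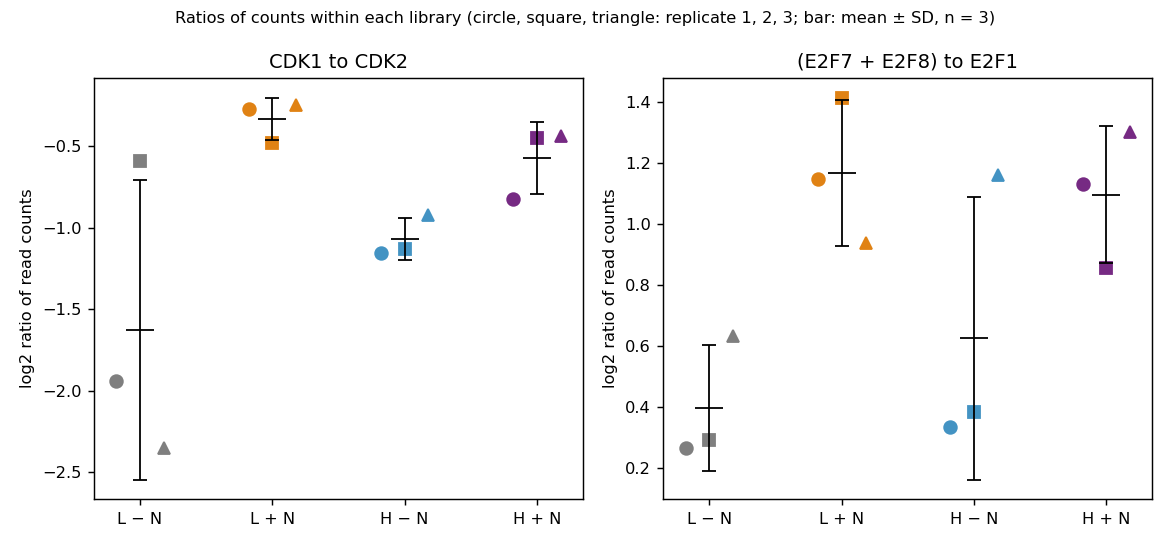
Log2 ratios of read counts (vertical axes) of CDK1 to CDK2 and of E2F7 plus E2F8 to E2F1 in the 12 libraries by group, with mean ± SD (n = 3). For CDK1 to CDK2 the NCG libraries lie above those without NCG at each fiber level, with L − N library 2 (-0.59) close to them, and for the E2F ratio H − N library 3 (1.16) lies among the NCG libraries.

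The genes most like each of the 10 were taken as the 3 with the highest Pearson r of log2 CPM over the 12 libraries, which includes the differences between groups. For CCNA2 they were BUB1B, TTK and DIAPH3 (r = 0.99 each), for CCNB1 BUB1, KIF20A and CDCA8 (0.99 each), and for CDK1 KIF2C, KIF4A and PRR11 (0.99 each). For CCNB2 they were CDCA2 (0.99), FOXM1 (0.99) and KIF2C (0.98). BUB1, BUB1B and TTK are kinases of the spindle checkpoint, and the KIF genes encode motors of mitosis. KIF20A overlaps CDC23.

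E2F7 was most like CDCA5, CENPN and TOP2A (r = 0.97 each), E2F8 most like DIAPH3, MTBP and BUB1B (0.98 each), E2F1 most like UHRF1, MCM10 (both 0.96) and CDCA5 (0.95), and CCNE2 most like GINS1, MMS22L (both 0.92) and NRM (0.91). UHRF1, MCM10, GINS1 and MMS22L serve the replication of DNA. CDK2 was most like CTCF, ADAMTS9 (0.97 and 0.96) and RXFP1 (0.96), which encode a factor of chromatin loops, a secreted protease and the relaxin receptor. MYB was most like SERPINI2, CFAP69 and CAPS2 (0.97 each), of which CFAP69 encodes a protein of the ciliary or flagellar axoneme.

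The summed CPM of 10 genes of ciliated cells and their formation, among them FOXJ1, GMNC and TP73, was 53.2 to 176 in L − N, 134 to 168 in L + N, 167 to 274 in H − N and 119 to 259 in H + N. It was lowest in L − N library 2, as was MYB, and highest in H − N library 3, as was MYB. Over the 12 libraries the log2 values of MYB and of this sum had a Pearson r of 0.82 (permutation p = 0.00211, adjusted over 20 relations 0.00469) and a Spearman rho of 0.64 (permutation p = 0.0296, adjusted 0.0591). Without these 2 libraries, the farthest from the median sum, r was 0.45, so the size of the relation rests on them. Within groups, as deviations from the group means, r was 0.89 over all 12 libraries. It includes the same 2 libraries and was not computed without them. The other 9 genes had r from -0.31 to 0.24 with the sum, and from -0.72 to -0.54 within groups. The 20 relations joined each of the 10 genes with this sum and with that of the G2/M list, and were chosen after the values were seen. Those with the G2/M list had mostly small p-values, which lowered the adjusted p-values of MYB with the ciliated-cell sum. The permutation shuffled all 12 libraries without regard to the groups.

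**Figure D5:**
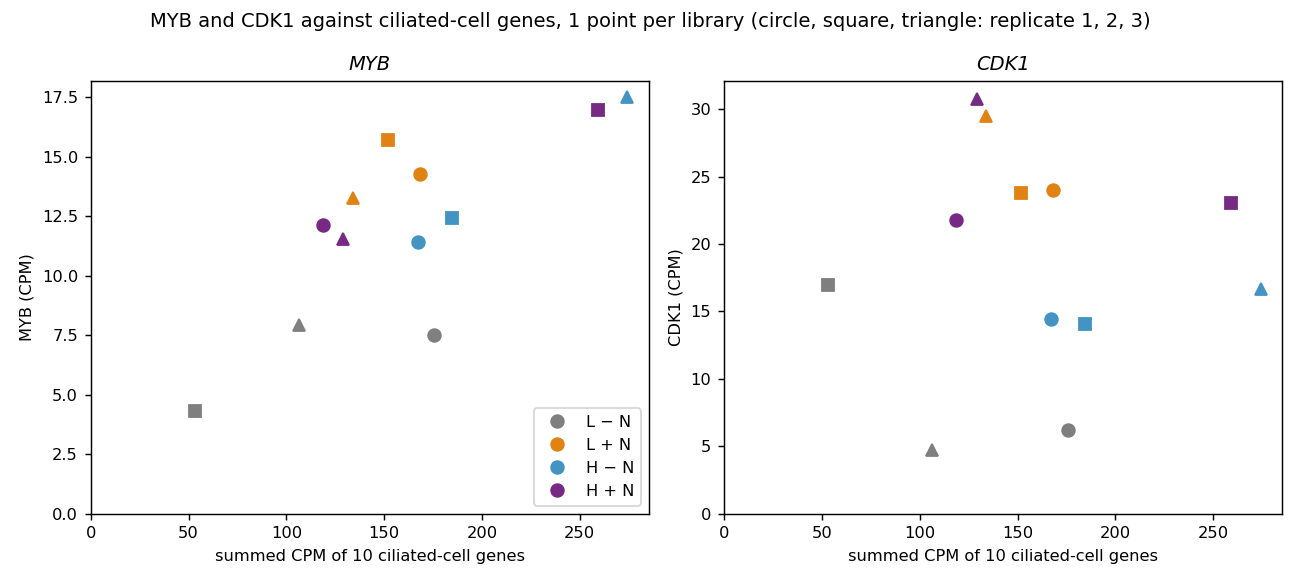
CPM of MYB (left) and CDK1 (right) on the vertical axes against the summed CPM of 10 genes of ciliated cells, 1 point per library, colored by group. MYB is lowest where the sum is lowest (L − N library 2, 4.33 CPM at 53.2) and highest where it is highest (H − N library 3, 17.5 CPM at 274), and CDK1 shows no such order.

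The summed markers of macrophages, smooth muscle and erythroid cells were each highest in an L − N library. The summed CPM of 6 macrophage markers was 579, 1509 and 1536 in the L − N libraries of replicates 1, 2 and 3, and 294 to 631 in the 9 others, so that replicate 1 lay within the range of the other groups. The 6 smooth muscle markers summed to 5197, 1614 and 2001 in the same libraries and to 797 to 1595 in the 9 others. Erythroid markers summed to 63.7 to 755 in L − N, 28.0 to 83.6 in L + N, 32.7 to 56.5 in H − N and 29.1 to 294 in H + N. Of the macrophage markers 3 of 6 were called lower in H + N against L − N (CD163, CD14 and CSF1R, edgeR), where 7.97% of all genes were called in either direction. Each of these lists had all of its markers above 0 in some library. The part of these cells in the differences of the 10 genes was not tested.

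Epithelial markers, summed over 8 genes, ranged from 1032 to 1529 CPM in L − N, 1478 to 1545 in L + N, 1567 to 2373 in H − N and 1248 to 1374 in H + N, and 8 stromal markers from 26690 to 61979 over all libraries, so both cell types of endometrium were present. Endothelial markers (6 genes) ranged from 1122 to 1641 in L − N and from 826 to 1235 elsewhere. Markers of T and NK cells (7 genes) lay between 56.8 and 199 and those of B and plasma cells (7 genes) between 116 and 802, both extremes of the former and the highest value of the latter in L − N. The trophoblast markers CDX2 and CYP19A1 had no reads in any library, and the 6 trophoblast genes together had 6.69 to 17.7 CPM. Of the 6, 3 passed the filter on low counts. Of these, 1 was called higher in H + N against L − N (edgeR), where 4.31% of all genes were. PAG2 and PAG3 of the same list were not analysed here.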

How the data were processed

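The deposited table holds, for each gene and library, a read count without normalization and an FPKM value that the authors made from it. Processing notes of the submitters name fastp 0.22.0, HISAT2 2.1.0 and HTSeq 0.9.1 with the assembly Sscrofa11.1; libraries were strand-specific poly(A) RNA, and the counting strand is not given in the sources used here. Titles of the samples gave the groups. Counts were filtered by filterByExpr, scaled by TMM and fitted in edgeR 4.0.16 (R 4.3.3) with 1 mean per group over 12 libraries and 8 residual degrees of freedom. The fit was also run on simulated counts with the same spread for all genes and no outlying library. That setting is simpler than these data, and its outcome is not used here. Log2 CPM used a prior count of 2, and ratios an added count of 0.5. FPKM was used only to compare levels between genes. DESeq2 1.42.0, RLE scaling, no filter, 2 groups alone, the replicate number as a block and leaving out each library were alternatives. The authors' comparisons were not used. The 10 genes and all lists were chosen with earlier results of these data known. All 10 genes are named. From each list, called genes (at most the 4 smallest p for NCG and for H + N against L − N) and the 2 with the highest FPKM are named.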

Additional observations from a re-analysis of the deposited data

How the results depend on the processing

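Under the alternatives that kept all libraries of the groups compared, no difference of the 10 genes reversed in any of the 8 contrasts, 345 kept their side of the threshold, 19 lost and 6 gained a call. With 1 library left out, 819 kept it, 106 lost and 8 gained a call, and 27 reversed, none of them called and none for NCG, H + N against L − N or L + N against L − N. CCNE2 then ranged from -0.22 to 0.0396 for HF, -0.34 to 0.14 for the interaction and -0.26 to 0.19 in H − N against L − N, and MYB from -0.22 to 0.19 in H + N against H − N (log2). In H + N against L + N, the ranges were -0.22 to 0.0307 for CCNA2, -0.28 to 0.0908 for CCNB1, -0.0485 to 0.14 for CCNB2, -0.39 to 0.0353 for CCNE2, -0.20 to 0.0486 for CDK1, -0.10 to 0.40 for E2F1, -0.41 to 0.0717 for E2F8 and -0.31 to 0.0126 for MYB. When single libraries were omitted, the number of the 10 genes called ranged from 3 to 7 for NCG, 0 to 8 for H + N against L − N, 0 to 8 for L + N against L − N and 0 to 4 for H − N against L − N. Over all genes the calls ranged from 519 to 1231, 1 to 1823, 207 to 1964 and 0 to 2025, in the same order. A fit of the 2 groups alone called 0 of the 10 genes in H + N against L − N, 4 in L + N against L − N and 0 in H − N against L − N, with fewer samples for the spread. Of all genes it called 111, 1391 and 3. Without the low-count filter, 1 was called in H − N against L − N. DESeq2 called 1 for HF, 9 for NCG, 9 in H + N against L − N and 8 in L + N against L − N.

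Of all genes, DESeq2 called 1993 for NCG against 1116 by edgeR, 2631 against 1223 in H + N against L − N, 2653 against 1474 in L + N against L − N, 2079 against 809 in H − N against L − N, 1093 against 8 for HF, 289 against 0 for the interaction, 46 against 0 in H + N against H − N and 2 against 0 in H + N against L + N. DESeq2 was given the 18404 genes with any read, and edgeR the 15351 that passed the filter on low counts. The cause of the difference in calls was not tested.

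With the replicate number as a block, the call count of the 10 genes was 5 in H + N against L − N and 0 in H − N against L − N, and it was 6 for NCG. In H + N and in H − N, each against L − N, MYB had adjusted p-values of 0.0672 and 0.0807 under the block (edgeR), and of 0.131 and 0.151 with the 2 groups alone. The numbers did not pair the libraries: deviations of same-numbered libraries had correlations from -0.32 to 0.28, over 0.1 in 3 of 18 pairs, and 3 of 12 libraries correlated best with their own number. Of all genes, 730 were called under the block in H + N against L − N, 380 in H − N against L − N and 1 for HF. The G1/S list had 6 called genes for NCG and 8 for H + N against L − N by DESeq2, and 1 and 0 under the block, and with the 2 groups alone 0 of the G1/S and 0 of the G2/M list were called in H + N against L − N. Depth was not varied, and its part in the calls was not tested.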
